A study of Rattus norvegicus with 6 samples.

Results

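miR-122 and miR-122* are the mature microRNAs (miRNAs) cut from the opposite arms of one hairpin precursor, and both were followed here in rat plasma after acute liver injury. They were taken as the miRNA spots named rno-miR-122 and rno-miR-122* on a 1-colour Agilent rat miRNA array, which gives 2 of the 677 miRNAs and 4 of the 1644 probes of the design. Plasma RNA was measured in 6 male Wistar rats, with 1 array per rat: 3 vehicle rats had 0.9% saline and 3 had thioacetamide at 100 mg/kg in the same saline, both injected into the peritoneum, and all were killed 24 h later. The labels give no age and no further treatment. Thioacetamide is activated by enzymes of the hepatocyte and then damages it, and the study was set up to find circulating miRNAs that report such damage. Each array carries its own body weights in the labels, so the arrays were taken as separate animals, and p-values measure the spread between them.

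A miRNA hairpin is cut by Dicer into a duplex of its arms. One strand, the guide, is loaded into an Argonaute protein and directs it to messenger RNAs that pair with the seed near its 5′ end, while the other strand, the passenger or star strand, is mostly degraded. miR-122 is the guide strand and the dominant miRNA of hepatocytes, where it takes part in control of lipid and cholesterol metabolism. It is widely used as a blood marker of hepatocyte damage, since injured hepatocytes release it. miR-122* is the passenger strand.

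The mature sequences and the probes that read them show what separated the arms on the array, and are given 5′ to 3′. Both names matched an arm of the RefSeq entry Mir122, and capitals in the mature sequences mark the seed, bases 2 to 8.
miR-122: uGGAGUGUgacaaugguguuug
miR-122*: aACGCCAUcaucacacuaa
In RefSeq's rat build GRCr8 the first lies at chr18:61028831-61028852 and the second at chr18:61028867-61028885, both on the plus strand. The guide has 22 bases and the star strand 19. Of the 693 mature rat miRNAs in the table, 0 others share the seed of miR-122 and 0 others that of miR-122*. Folded with RNAfold, the 85-base hairpin paired 15 bases of each arm with the other. The RefSeq annotation places the hairpin within a transcribed pseudogene, LOC134482951. It is also overlapped by Mir3591 on the minus strand.

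Each arm was read by 2 nested probes that pair with its 3′ end, with 10 spots per probe on each array. Capitals in the probe sequences mark the base by which the long probe exceeds the short one.
miR-122 short: caaacaccattgtcacact
miR-122 long: caaacaccattgtcacactC
miR-122* short: ttagtgtgatgatggc
miR-122* long: ttagtgtgatgatggcG
The long probes pair from base 3 to the last base of their arm and the short ones from base 4, so the probes of an arm share nearly all of their target. The files place the long probes at chr18:61512764-61512782 and chr18:61512800-61512815 in the build rn4. These intervals are 1 base shorter than the probes. The longest run of bases that any of the 1640 other miRNA probes has in common with the long probe was 9 of 20 for miR-122 and 7 of 17 for miR-122*. The array also carries miR-3591, from the opposite strand of the locus, which was above background on 0 of 6 arrays.

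The arrays differed in background. A spot was well above background in the call of the scanner software, Agilent Feature Extraction, and a probe counted as detected where this held for over 50% of its unmarked spots, a miRNA where it held for any of its probes. Between 16 and 83 miRNAs were detected per array. The miRNA spots spread by 33.4 to 96.5 intensity units (median absolute deviation, normal-scaled) on the 3 arrays in slide columns 1 and 2, which were vehicle 2, vehicle 3 and thioacetamide 1. They spread by 4.86 to 12.7 on the 3 arrays in columns 3 and 4. Each of these sides had arrays of both groups. Slide positions were taken from the digits that end the name of each scan. The number of arrays limits the precision. The labelling spike-ins, RNAs added in equal amount before labelling, differed between the groups by -0.12 on the log2 scale (exact two-sided permutation p = 0.5). Treated rats changed weight by -18, -19 and -20 g between start and end, and vehicle rats by 4, 3 and 4 g.

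At the level of single spots, miR-122 was at or near background in vehicle plasma and bright in every treated rat. Signals are background-subtracted intensities on a linear scale, before any scaling between arrays. On the long miR-122 probe the spot means were 53.0 ± 2.34 (SD between spots), 42.3 ± 5.11 and 10.4 ± 11.5 on vehicle 1 to 3. They were 11819 ± 1362, 12762 ± 1208 and 26342 ± 695 on thioacetamide 1 to 3. On the short probe they were 20.2, 7.69 and -5.48 for the vehicle arrays and 4358, 4952 and 10379 for the treated ones. The ranges of the groups were far apart on both probes, and in the treated group the third rat was the highest on both.

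All 58 unmarked miR-122 spots of the treated arrays were well above background, against 18 of 57 on the vehicle arrays. The 18 all lay on vehicle 1. There the negative control spots averaged 9.07 ± 12.4 (SD, 428 spots) with a 95th percentile of 30.3, which the long probe exceeded and the short probe did not. In vehicle 2 and vehicle 3 miR-122 was not well above background on any spot. No spot of either arm was saturated, and the 7 of 240 marked as outliers by the software were not used. Where a miR-122 probe was detected, its spots varied by 2.64% to 14.5% (coefficient of variation), with a median of 9.26%. For the probes of miR-122* this was 8.84% to 17.0%, with a median of 12.4%.

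The probes of miR-122 kept a nearly constant proportion wherever both were detected. The long probe was 2.71, 2.58 and 2.54 times as bright as the short one on thioacetamide 1 to 3, and 2.62 times as bright on vehicle 1. On vehicle 2, where neither was detected, the quotient was 5.50, and on vehicle 3 the short probe was below 0.

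**Figure D1:**
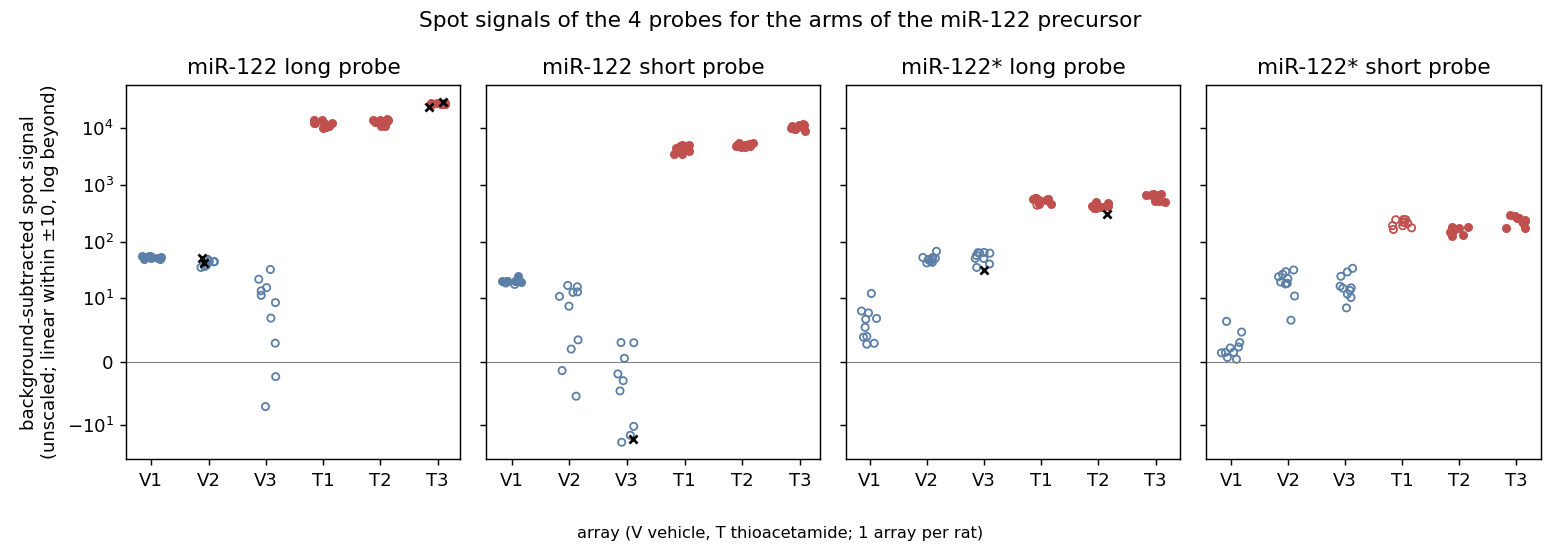
Background-subtracted signal of each spot on a vertical axis that is linear within ±10 and logarithmic beyond, for the long and short probe of each arm, by array (V1 to V3 vehicle in blue, T1 to T3 thioacetamide in red); filled points are well above background, open points are not, and crosses are spots marked as outliers. The dimmest treated miR-122 spot is at 3419 and the brightest vehicle spot of any of the 4 probes at 67.4.

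miR-122 rose more than any other of the 59 miRNAs tested. Spot means were summed over the probes of a miRNA, and each array was divided by a scale factor. The factor was the 75th percentile of the 12 probes that every array detected, relative to the geometric mean of the arrays. Scaled signals under a floor of 46.1 were raised to it before log2 was taken. The scaled signal of miR-122 was 78.3, 64.4 and 7.87 on vehicle 1 to 3, and 7116, 22851 and 29414 on thioacetamide 1 to 3. The lowest treated rat was above the highest vehicle rat. On the log2 scale the level was 5.94 ± 0.39 (SD, n = 3) in vehicle and 14.04 ± 1.09 (n = 3) in treated rats. The change was 8.10 ± 0.61 (SE; 95% interval 6.62 to 9.57; limma adjusted p = 0.000406), or 274-fold. This fold and its interval depend on the floor, since 1 of 3 vehicle arrays held a detected level. With each vehicle array at the higher of its own signal and its lowest detected probe signal, the rise was 113-fold. Leaving out 1 rat gave 81.4-fold (without vehicle 1) to 173-fold (without thioacetamide 1). The lowest detected signal is of a single probe, while the signal of miR-122 sums both probes, so these are only approximate lower bounds.

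Against vehicle 1, the vehicle array with a detected level, the 3 treated rats were 90.9-fold, 292-fold and 376-fold higher on the scaled signal, and 221-fold, 242-fold and 501-fold higher on the unscaled signal. Scaling changed how the treated rats compared. Before scaling they spanned 2.27-fold, with thioacetamide 1 at 16178 and thioacetamide 2 at 17715 close together. After scaling the highest, thioacetamide 3, was 4.13 times the lowest, thioacetamide 1. The scale factors by which they were divided were 2.27 for thioacetamide 1, 0.775 for thioacetamide 2 and 1.25 for thioacetamide 3. In cell-free plasma, the number of cells that gave a miRNA and the amount each gave cannot be told apart.

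Of all miRNAs tested, 9 rose, which is 15.3%, and both arms of the miR-122 precursor were among them. In either direction 10 were called, or 16.9%. Each arm was detected in all 3 treated rats, which alone admits a miRNA to the test, so their presence among the calls is a description. At an unadjusted p under 0.05 by limma, 16 were higher and 5 lower, and the median log2 change over all 59 was 0.45. Quantile normalization gave 8 higher and 5 lower calls, and median scaling, over miRNAs that every array detected, gave 12 and 4, against 9 and 1. Without scaling there were 22 higher and 0 lower calls, with spike-in scaling also 22 and 0, and with the percentile over all probes 3 and 0. The groups did not overlap, with the treated rats higher, for 16 of the 59 (27.1%), again with both arms among them, and in either direction for 22 (37.3%). The change of miR-122 lost its call in 2 of 26 alternatives, namely without a filter on dim miRNAs (8.10, adjusted p = 0.0527) and in slide columns 1 and 2 alone (7.03, adjusted p = 0.0759). Over the 24 alternatives that keep at least 2 rats in each group, its limma adjusted p ranged from 7.09e-06 to 0.0527. Each side of the slide has 1 array of one group, and a fit there assumes that this array varies like the others.

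**Figure D2:**
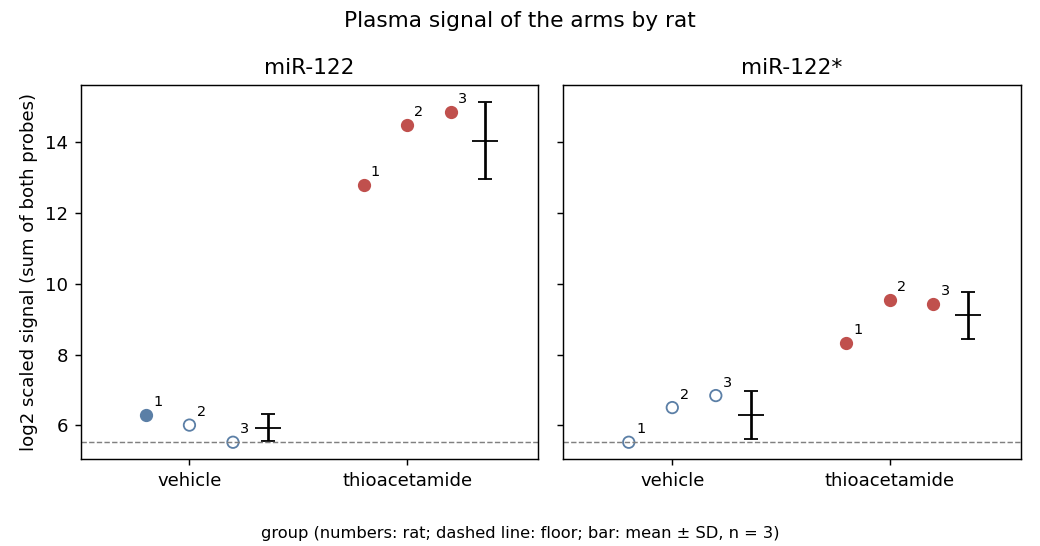
Log2 scaled signal summed over the probes of each arm, for each rat (numbers), with mean ± SD (n = 3 per group) as black bars and the floor as a dashed line; filled points were detected and open points were not. miR-122 moved from 5.94 to 14.04 and miR-122* from 6.29 to 9.10, and the treated rats lie above the vehicle rats in both panels.

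The star strand was detected in treated rats only. miR-122* was called on 0 of 3 vehicle arrays and 3 of 3 treated arrays, the latter with both probes on thioacetamide 2 and 3 and with the long probe alone on thioacetamide 1. On the long probe the spot means were 6.04 ± 2.90 (SD between spots), 49.7 ± 7.17 and 54.0 ± 10.8 on the vehicle arrays. They were 527 ± 52.3, 423 ± 37.4 and 624 ± 78.4 on the treated arrays. On the short probe they were 2.39, 20.7 and 17.9, and then 209, 158 and 235. Every treated value lay above every vehicle value of the same probe.

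The vehicle values of miR-122* were background by the scanner's call, with 0 of 59 unmarked spots well above it. They lay within 1 SD of the negative control spots, whose means were 9.07 ± 12.4, 38.6 ± 38.9 and 46.4 ± 32.2 on vehicle 1 to 3. Of the treated spots, 48 of 59 were well above background. The negative controls of thioacetamide 1 averaged 108 ± 94.0, and none of the short-probe spots was called there. In spite of this, the long probe was 2.52, 2.68 and 2.66 times as bright as the short one on the treated arrays. It was 2.53, 2.40 and 3.02 times as bright on the vehicle arrays, where neither probe was detected.

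The scaled signal of miR-122* was 9.0, 90.8 and 115 on vehicle 1 to 3, and 324, 749 and 688 on thioacetamide 1 to 3. Thioacetamide 1 was the lowest treated rat for both arms after scaling. As no vehicle array held a detected level, the rise is given as an approximate lower bound, 5.71-fold. The bound sets the treated mean log2 of 9.10 against a vehicle mean of 6.59 formed as for miR-122. Its limit is again of a single probe, while the signal sums both probes, so the bound is not strict. No sampling error was computed for the bound. Vehicle 1 had the lowest limit, 20.9 on the scaled signal against 175 and 245 on vehicle 2 and 3. Without vehicle 1 the approximate bound was 2.66-fold, and without vehicle 3 it was 9.09-fold. In the fit with the floor, the levels were 6.29 ± 0.68 (SD, n = 3) in vehicle and 9.10 ± 0.67 (n = 3) in treated rats, a change of 2.81 ± 0.53 (SE; 95% interval 1.53 to 4.10; limma adjusted p = 0.0130). miR-122* entered this test only through the treated rats, and without a filter on dim miRNAs its adjusted p was 0.302. By the long probe alone, which sets a probe against a probe, the approximate lower bound was 4.13-fold. It too rests on the low limit of vehicle 1, and was not computed without that array. The short probe was detected on 2 of 3 treated arrays, and no bound is given for it.

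The call for miR-122* ended in 7 of 26 alternatives, among them leaving out thioacetamide 2 (adjusted p = 0.0654) or thioacetamide 3 (adjusted p = 0.0623) and a normexp background, where the change was 1.35 (adjusted p = 0.0704). Over the 24 alternatives that keep at least 2 rats in each group, the limma adjusted p ranged from 0.000644 to 0.302. Within columns 1 and 2 its log2 change was 1.67, and within columns 3 and 4 it was 3.96. For miR-122 these were 7.03 and 8.37. As the groups did not overlap, the directions within each side were fixed, and only the sizes inform.

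**Figure D3:**
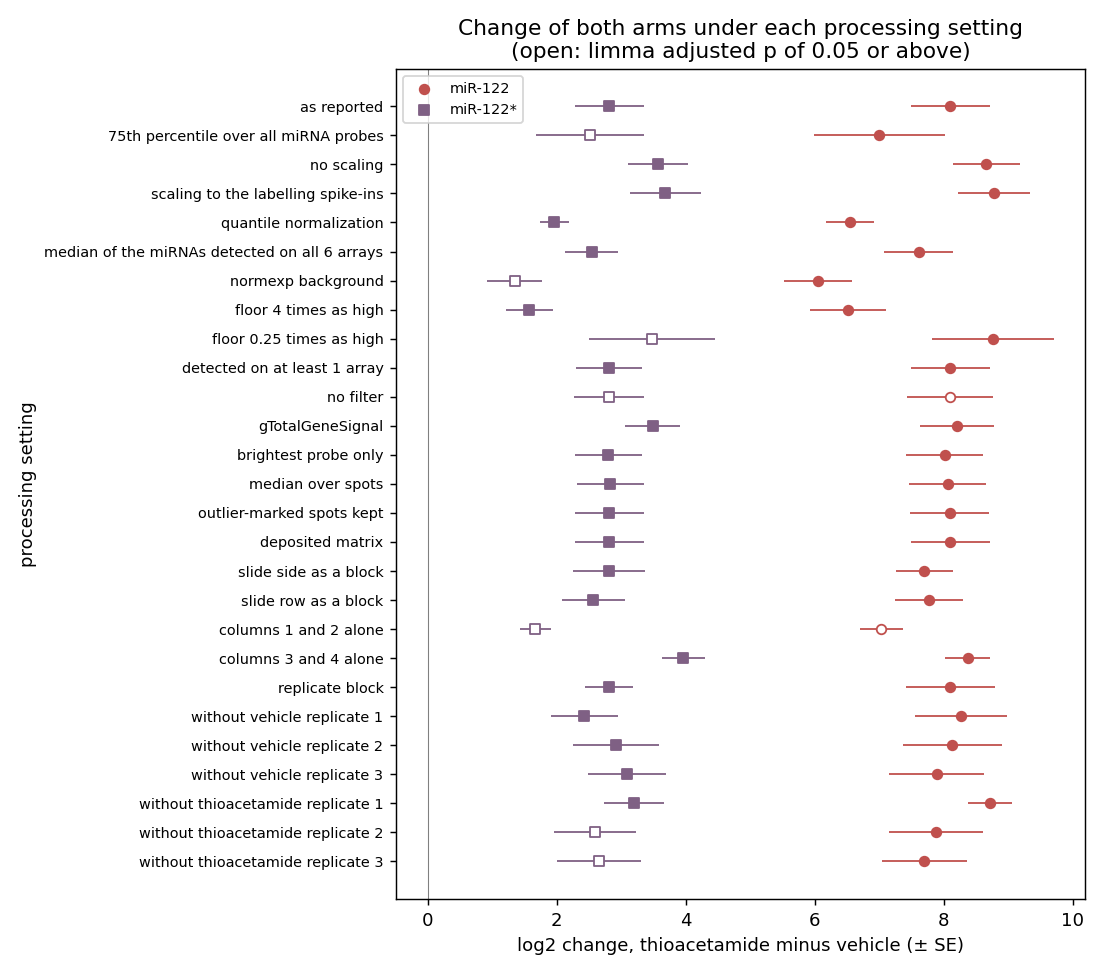
Log2 change of miR-122 (circles) and miR-122* (squares), thioacetamide minus vehicle, with its standard error, as reported and under each alternative that gave a value; open symbols have a limma adjusted p of 0.05 or above. All values are above 0, from 6.04 to 8.78 for miR-122 and from 1.35 to 3.96 for miR-122*.

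Feature Extraction's own total per miRNA, which sums only the probes it counts as detected and sets undetected miRNAs to 0.1, gave the same calls per array. The total for miR-122 was 48.6 on vehicle 1, at the minimum of 0.1 on vehicle 2 and 3, and 10736, 11757 and 24370 on thioacetamide 1 to 3. For miR-122* it was at the minimum on the 3 vehicle arrays and 350.0, 385 and 570 on the treated arrays. With these totals in place of the summed spot means, the log2 changes were 8.20 for miR-122 and 3.49 for miR-122* (limma adjusted p = 0.000307 and 0.00173). Totals at the minimum were raised to the floor before log2 was taken. The vehicle level of miR-122* was then the floor itself on all 3 arrays, without spread. Its change and p-value therefore depend on the floor, and those of miR-122 do so through vehicle 2 and 3.

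The ratio of the arms could be measured in treated rats only. Probes differ in how well they bind, so the quotient of signals is not a ratio of molecules, and only its change between arrays can be read. The miR-122 signal was 21.96, 30.5 and 42.8 times that of miR-122* on thioacetamide 1 to 3 (31.7 ± 10.5, SD, n = 3). The order was the same with the long probes alone, at 22.4, 30.2 and 42.2. With Feature Extraction's totals the quotients were 30.7, 30.5 and 42.8, since the total of miR-122* on thioacetamide 1 leaves out the undetected short probe. Thioacetamide 3 had the highest quotient by each of the 3 measures, and the place of thioacetamide 1 depended on the measure.

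In vehicle rats the quotient was not a measurement of the arms. On vehicle 1, where miR-122 was detected and miR-122* was not, it was 8.70. Setting miR-122* at the lowest detected signal of a single probe gave an approximate lower bound of 3.74. On vehicle 2 and 3, where neither arm was detected, the quotients were 0.710 and 0.0685. The log2 quotient with the floor was -0.35 ± 1.05 (SD, n = 3) in vehicle and 4.94 ± 0.48 in treated rats. The difference of 5.28 had an exact two-sided permutation p = 0.1, the smallest that 3 against 3 allows. The treated quotients lay above all 3 vehicle quotients. As every vehicle quotient holds an undetected signal, the test cannot tell whether the ratio of the arms changed. The bound on vehicle 1 gives no upper limit.

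**Figure D4:**
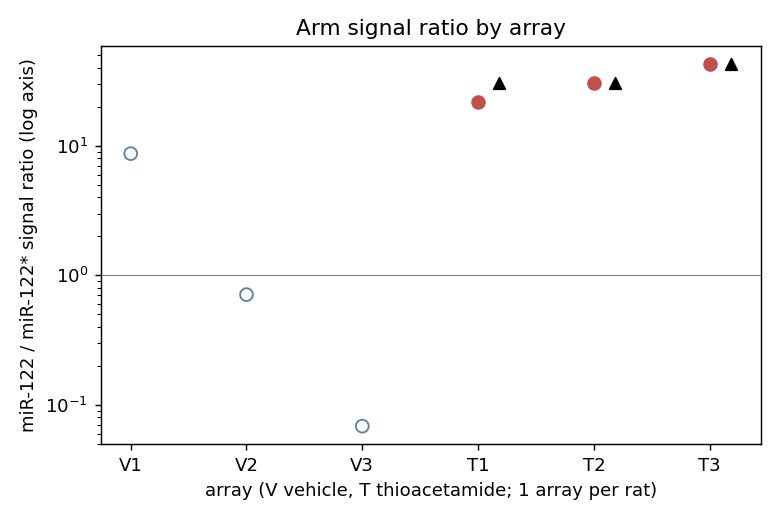
Quotient of the miR-122 and miR-122* signals on each array, on a logarithmic axis; circles use the summed spot means (open where miR-122* was not detected) and triangles use Feature Extraction's totals. Treated arrays lie between 21.96 and 42.8, and the vehicle values of 8.70, 0.710 and 0.0685 include undetected signals.

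As a share of the array's signal, which needs no scaling between arrays, miR-122 ranged widely among treated rats and miR-122* little. Shares are of the unscaled signal summed over the 59 tested miRNAs. miR-122 held 0.396%, 0.236% and 0.0350% on vehicle 1 to 3, and 23.0%, 34.1% and 40.9% on thioacetamide 1 to 3. The difference in means was 32.4 percentage points (32.7% ± 9.04 against 0.223% ± 0.181, SD, n = 3 each, exact permutation p = 0.1). miR-122* held 0.0456%, 0.333% and 0.510% in vehicle, from undetected signals. In treated rats it held 1.05%, 1.12% and 0.957%, a mean of 1.04% ± 0.0797. The difference was 0.744 percentage points (exact permutation p = 0.1). The treated rat with the largest share of miR-122 had the smallest share of miR-122*. The sum holds miR-122 itself, so a larger share of it lowers that of miR-122*. This order therefore cannot be read as opposite behaviour of the arms, and with 3 rats it was not tested. The unscaled signal of miR-122* was 737, 580 and 859 on thioacetamide 1 to 3.

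**Figure D5:**
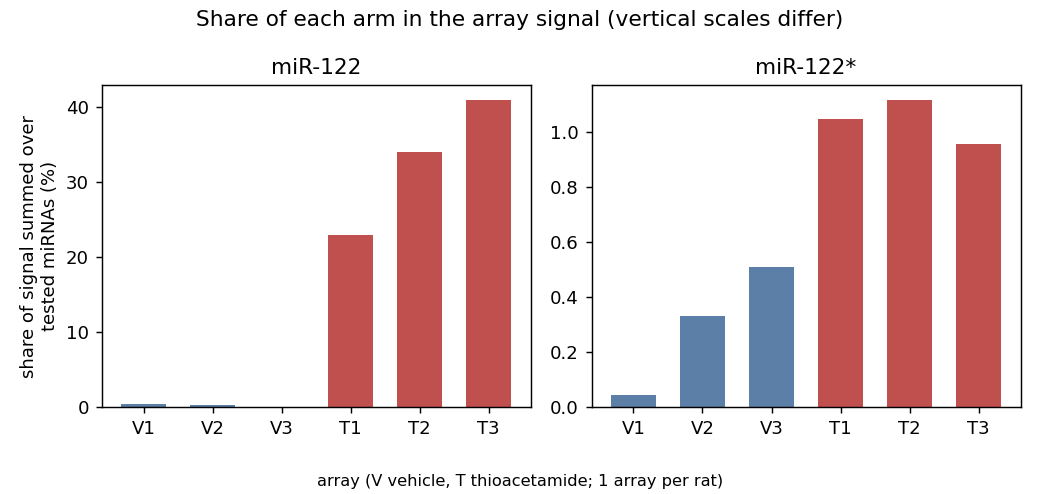
Share of miR-122 and of miR-122* in the unscaled signal summed over the 59 tested miRNAs, as 1 bar per array from 0, with different vertical scales in the panels. miR-122 reached 23.0% to 40.9% in treated rats, and miR-122* stayed between 0.957% and 1.12%.

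Likeness of pattern was taken as the root mean square difference between log2 profiles over the 6 arrays, each less its own mean, so that a lower value is more alike. Nearest to miR-122 was miR-22, a miRNA abundant in liver and several other tissues, at 1.19. miR-192, known from liver and intestine, followed at 2.01, and miR-188 at 2.52. miR-122* was sixth in this order, at 2.73. Nearest to miR-122* were miR-30d at 0.27, miR-30a at 0.48 and miR-29a at 0.51, and miR-122 was its 58th and last neighbour. The measure counts the size of a change, which differed between the arms, and low values are also bounded by the floor.

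The log2 signal of miR-22 was 7.68, 6.70 and 6.56 on vehicle 1 to 3, and 11.91, 13.30 and 13.11 on thioacetamide 1 to 3. That of miR-30d was 6.03, 6.79 and 6.59, and then 8.15, 9.59 and 9.29. It was not detected on vehicle 2, vehicle 3 or thioacetamide 1. The order of treated rats was that of miR-122*, but the other named neighbours, miR-22, miR-192, miR-188, miR-30a and miR-29a, all shared it. The scale factors of the treated arrays ran in the reverse order. miR-188 was detected on 1 vehicle and 2 treated arrays and did not pass (3.27 ± 0.91, limma adjusted p = 0.0546).

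Of 14 miRNAs listed as known from liver, 8 were detected on some array and 5 were tested. Of these 5, miR-122, miR-22 (5.80 ± 0.54, SE, limma adjusted p = 0.000725), miR-192 (4.23 ± 0.46, adjusted p = 0.00107) and miR-122* rose, and 0 fell. miR-193, also enriched in liver, did not pass (1.59 ± 0.58, adjusted p = 0.103). All 5 were detected in all 3 treated rats and in at most 1 vehicle rat, so they were admitted to the test through the treated rats, and their count is no evidence of a direction. The listed miRNAs undetected on every array were miR-194, miR-101a, miR-148b-3p, miR-455, miR-802 and miR-483. The list was drawn up with earlier results of these data known.

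Blood cell miRNAs were present in the plasma of both groups. miR-451 and miR-16, abundant in red blood cells, were detected on all 6 arrays. The scaled signal summed over the 8 erythrocyte miRNAs found on the array was 10755 to 13736 in vehicle and 6358 to 6596 in treated rats. Of these, miR-144 was the only one undetected on every array. Of 7 tested, 0 rose and 1, miR-451, fell by 1.31 on the log2 scale (limma adjusted p = 0.0427). Over all 59 tested, 15.3% rose and 16.9% were called in either direction, so these counts are no result about the list. The call of miR-451 held in 14 of 27 alternatives. It was lost where no scaling was done (a change of -0.56, adjusted p = 0.598) and where spike-ins set the scale (-0.44, adjusted p = 0.755). The adjusted p ranged from 0.00311, in columns 3 and 4 with their single vehicle array, to 0.755. Before scaling its signal was 4257 to 8265 in vehicle and 2317 to 8665 in treated rats, so the groups overlapped. The call was also lost on leaving out any 1 rat other than thioacetamide 1 (adjusted p from 0.0858 to 0.180). miR-16 differed by -1.13 (adjusted p = 0.0585). The sum over 5 leukocyte miRNAs was 371 to 745 in vehicle and 396 to 478 in treated rats. Of 3 tested, 0 were called, against 16.9% over all 59. Among them miR-223, of myeloid cells, differed by 0.03 and miR-150, of lymphocytes, by -0.91 (adjusted p = 0.958 and 0.220). Their 95% intervals, -1.28 to 1.34 and -2.09 to 0.27, are too wide to show an unchanged level. Probes of miR-16, miR-92a, miR-25 and miR-451, all of the erythrocyte list, are among those that set the scale factors. Without scaling, the log2 change was 8.66 for miR-122 and 3.57 for miR-122*. All 6 muscle miRNAs listed (miR-1, miR-133a, miR-133b, miR-206, miR-208 and miR-499) were undetected on every array.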

How the data were processed

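The submitters' processing notes name Agilent Feature Extraction 10.7.3.1 for the 6 scanner files. The deposited intensity of a spot is linear and has its background subtracted, with no scaling between arrays. Per the file headers, the well-above-background mark has a multiplier of 13. This and the other marks are flags of 0 or 1. The deposited matrix equals the processed signals to within 0.005. From these, unmarked spots were averaged per probe and summed per miRNA, scaled, floored at 46.1 (the 5th percentile of scaled signals of detected miRNAs) and taken to log2. The 59 miRNAs detected on at least 3 of 6 arrays were fitted in limma 3.58.1 (R 4.3.3; linear model with moderated variance, treatment as the only term), with Benjamini-Hochberg adjustment and a threshold of 0.05. Quantities with 1 value per array had an exact permutation test, two-sided. The limma fit was tested on simulated log2 values with known changes, and the permutation test on a worked case. The scaling, floor, detection filter and bounds were not part of that test. Sequences are RefSeq's, and the hairpin was folded with RNAfold 2.7.2. The members, lists and tests were chosen with earlier results of these data known. Described by name were both arms, tested liver miRNAs, 4 blood cell miRNAs and the 3 nearest profiles of each arm. Alternatives covered scaling, background, floor, filter, summaries, slide position, replicate block and each rat left out. Those for miR-451 and for the bounds were added after seeing the data.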

Additional observations from a re-analysis of the deposited data

How the results depend on the processing

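Both arms were higher after thioacetamide in all 26 alternatives that gave them a value. Neither was tested among miRNAs detected on all 6 arrays. The miR-122 call ended in columns 1 and 2 alone (7.03) and without a filter (8.10); that of miR-122* ended with the percentile over all probes (2.51), normexp (1.35), a floor 0.25 times as high (3.48), no filter (2.81) and columns 1 and 2 alone (1.67). Leaving out 1 rat, with scale factors and tested miRNAs kept, gave 7.70 to 8.72 for miR-122, 2.43 to 3.20 for miR-122*, 4.80 to 5.84 for the log2 quotient of the arms, 28.3 to 37.3 percentage points for the share of miR-122 and 0.619 to 0.851 for that of miR-122*. The log2 quotient difference was 4.41 in columns 3 and 4 alone. The difference in share of miR-122 was 22.9 in columns 1 and 2 alone, and that of miR-122* was 0.362 with normexp, 0.994 with Feature Extraction's totals and 0.991 in columns 3 and 4 alone.

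The count of called miRNAs, 10 in all, was 3 with the percentile over all probes, 22 without scaling, 22 with spike-in scaling, 16 with median scaling, 6 with normexp, 19 over miRNAs detected on at least 1 array, 2 over those detected on all 6, 2 without a filter, 17 with the brightest probe, 37 in columns 3 and 4 alone and 0 by limma in columns 1 and 2 alone, where 16 had an unadjusted p under 0.05. Leaving out 1 rat gave 5 (without thioacetamide 2) to 27 (without thioacetamide 1), with 6 without thioacetamide 3. Over the 59 miRNAs the median log2 change moved from 0.45 to 0.97 if no scaling was done, to 1.15 if spike-ins set it, to 0.02 after quantile normalization and to 0.03 after median scaling. Apart from fewer rats or miRNAs where a setting leaves them out, the cause was not tested.

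With a replicate block the changes were 8.10 for miR-122 (limma adjusted p = 0.00982) and 2.81 for miR-122* (adjusted p = 0.0196), the log2 quotient difference was 5.28, the shares differed by 32.4 and 0.744 percentage points, and 10 miRNAs were called. The labels do not say that a number marks a shared cage or day, and the deviations of same-numbered rats correlated at -0.70, -0.31 and -0.66, with 0 of 3 vehicle rats closest to their own number, so the numbers were not taken to pair the rats.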
